A study of Homo sapiens with 12 samples.

Results

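GSK343 alone was compared with its solvent DMSO in A375 cells, a human melanoma line that carries a BRAF mutation. The comparison used 6 of the 12 libraries of the study: 3 libraries of cells given 1 µM GSK343 and 3 of cells given DMSO, both harvested after 24 h. In the remaining 6 libraries, cells received 1 µM XL413, an inhibitor of the replication kinase CDC7, either alone or together with 1 µM GSK343. The labels name 3 biological replicates a group and do not say what separated them, so p-values measure the spread between these libraries. All cells were 1 line in serum-containing medium, and no group lacked EZH2 or carried an EZH2 mutation by the labels. Messenger RNA was selected with oligo-dT, and a gene's level is given in CPM, its counts scaled by library size. Of 26475 genes in the table, the 15043 that passed a count filter were tested, and 11432 did not pass.

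EZH2 is the catalytic subunit of Polycomb repressive complex PRC2, which methylates lysine 27 of histone H3 at genes of development and differentiation and helps to keep them silent. Its partners EED and SUZ12 are needed for activity, EZH1 is a paralog, and JARID2, AEBP2, MTF2 and PHF19 help to bring the complex to its targets. GSK343 blocks the methyltransferase site and leaves the protein in place. Methylated histones are lost mainly as cells divide, so target genes can respond slowly. RNA counts hold no measure of histone methylation, and whether a change passed through EZH2 was not tested.

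The 6 libraries held 32979558 to 36131973 counts, and 18229 to 18488 genes had a count. The first principal component carried 27.5% of the variance and placed the DMSO libraries from −21.2 to −1.78 and the GSK343 libraries from 5.51 to 16.3. The melanoma label was checked with 18 marker genes, of which 15 passed the filter. SOX10, the neural crest factor of melanocytes, was at 298.6 to 360.0 CPM, and CSPG4, a melanoma surface proteoglycan, at 343 to 375 CPM. The pigment genes MLANA and DCT had at most 5 counts in a library and TYR had 0. Of 13 leukocyte markers 5 passed the filter, none was called by edgeR, and the list summed to 63.4 to 69.97 CPM, mostly CD68 (42.2 to 47.3 CPM) and CORO1A (12.9 to 15.8 CPM), while the defining gene PTPRC had at most 3 counts and TYROBP 0. Of 11 epithelial markers 6 passed and 2 were called lower, KRT18 (523 to 606 CPM) and KRT14 (18.4 to 24.4 CPM); EPCAM and CDH1 had at most 7 counts. The epithelial sum was 662 to 691 CPM with DMSO and 597 to 618 CPM with GSK343, and its part in other falls was not tested. Summed levels of 11 fibroblast markers ranged from 231 to 291 CPM with DMSO and from 172 to 257 CPM with GSK343, with 0 calls by edgeR. In fits that left out 1 library, 0 to 2 of them were called lower, and in the other alternative fits 0 to 1.

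After GSK343, 422 genes passed the test (edgeR's quasi-likelihood test, Benjamini-Hochberg adjusted p under 0.05), 224 of them higher and 198 lower. That is 2.81% of the tested genes, 1.49% in the higher and 1.32% in the lower direction. Counts of called list members below are to be read against these shares. Changes were small: the median called gene was 1.26-fold higher or 1.13-fold lower. Only 27 called genes differed by 1.5-fold or more, and 26 of these were higher. Without regard to the test, the 3 libraries of one group lay beyond the 3 of the other in 25% of tested genes, 12.6% with GSK343 higher and 12.4% with it lower, and all 422 called genes were among them. Called lower genes were the more abundant, with a median level of 7.12 log2 CPM against 4.62 for called higher genes. They also had a higher GC content, a median of 58.1% against 47.1%, with 48.7% over the tested genes that had a value.

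**Figure D1:**
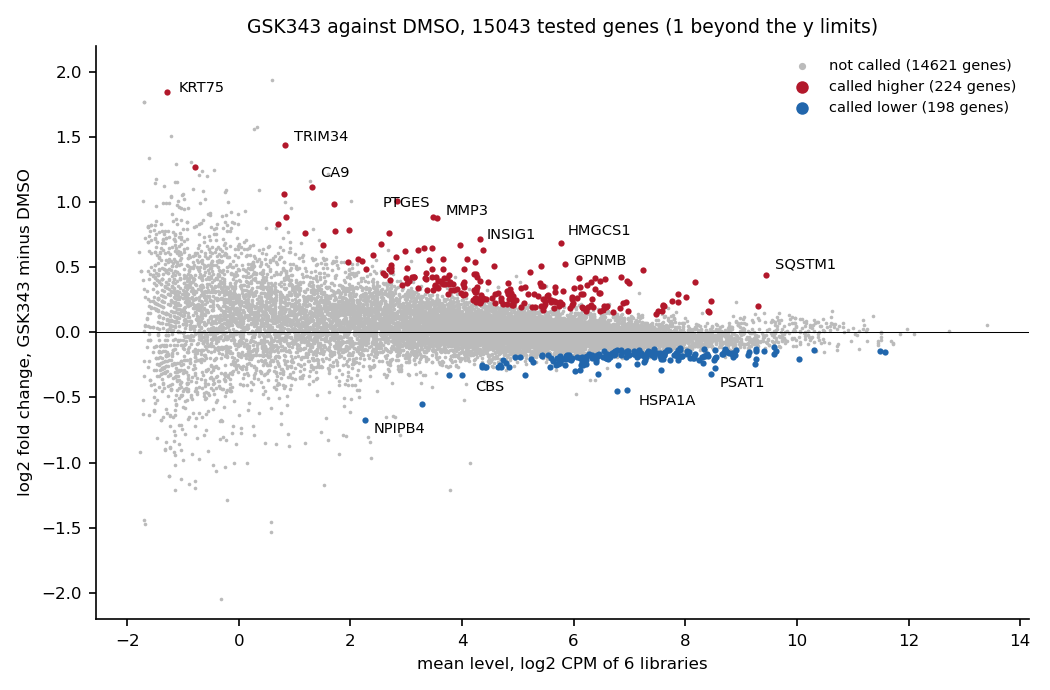
Log2 fold change (GSK343 minus DMSO) of each of 15043 tested genes against its mean level in log2 CPM, with 224 genes called higher in red and 198 called lower in blue. Called higher genes reach larger differences and lower levels than called lower genes, and 1 gene that is not called lies beyond the vertical limits.

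The balance of higher and lower calls depended on scaling: 253 genes were higher and 136 lower under upper quartile scaling, against 197 and 353 by DESeq2. Single libraries also moved the count, to 139, 68 and 78 without DMSO replicates 1, 2 and 3, to 239 and 175 without GSK343 replicates 1 and 2, and to 951 without GSK343 replicate 3. Of the 6 libraries, GSK343 replicate 3 lay furthest from the rest of its group. Its log2 CPM differences from them had an SD of 0.13, against 0.074 to 0.11 for the others. What set it apart was not tested. The sign did not change for any of the 422 genes in the 16 alternative fits where they were tested. A core of 59 genes, 46 higher and 13 lower, was called in every fit that left out 1 library. Their median size was 1.30-fold, and where a gene below is said to be in this core, no single library decided its call. A fit of all 12 libraries, by contrast, gave 180 calls, and of the core genes named here it ended those of ITGA1, NPIPB4, CEMIP, NRP2, LYST and IGFN1. That fit lost 41 of the 122 calls under the naming rule, and below this is stated for only some of them. Among the others were ALDH1L2, FADS1, ID3, HLA-DRA, HLA-DPA1 and HLA-DMA (edgeR adjusted p from 0.095 to 0.379).

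No transcript of PRC2 itself passed the test in edgeR. EZH2 was at 94.03, 101 and 95.6 CPM with DMSO and 90.8, 86.8 and 89.5 CPM with GSK343. All 3 GSK343 libraries were below all 3 DMSO libraries, but the log2 fold change of −0.12 ± 0.039 (SE) had an adjusted p of 0.122 in edgeR and did not pass. EED, the subunit that reads the methyl mark, was at 66.5, 62.4 and 62.5 CPM with DMSO and 61.9, 62.6 and 57.98 CPM with GSK343, and those ranges overlapped. SUZ12, which holds the complex together, was at 89.6, 92.5 and 92.5 CPM with DMSO and 84.4, 86.5 and 94.1 CPM with GSK343, also with overlap. EZH1 (0.06 ± 0.051), JARID2 (0.12 ± 0.069) and LCOR (0.16 ± 0.081) had log2 fold changes above 0, as did AEBP2 (0.02 ± 0.046). Those of MTF2 (−0.12 ± 0.048), PHF19 (−0.09 ± 0.035), PHF1 (−0.02 ± 0.051), RBBP4 (−0.10 ± 0.042) and RBBP7 (−0.06 ± 0.029) were below 0. None of the 12 tested subunits was called by edgeR, DESeq2 or limma-voom, and 4 had an unadjusted p under 0.05, all of them lower. Over all tested genes, 19.1% had an unadjusted p under 0.05, 9.59% higher and 9.55% lower, against which such counts are to be read here and below. With a correction for transcript length and GC content, 2 were called lower, EZH2 and RBBP4, and RBBP4 was also called without GSK343 replicate 3.

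In the lists of HOX genes and of other developmental regulators, typical Polycomb targets, no member that passed the count filter was called by edgeR. Members with too few counts to pass, among them any that were silent, were not tested. Of 39 HOX genes, which pattern the body axis, 36 were tested and 0 were called by edgeR, DESeq2 or limma-voom, with 1 at an unadjusted p under 0.05 (median log2 fold change 0.01, as over all tested genes, 0.01). HOXC10 was at 45.9, 46.4 and 45.3 CPM with DMSO and 47.1, 46.9 and 44.96 CPM with GSK343, and HOXB2 at 39.9, 42.2 and 45.1 CPM with DMSO and 39.3, 37.98 and 34.5 CPM with GSK343. The 3 HOXB2 values with GSK343 were all below those with DMSO (adjusted p = 0.112). Of 82 other developmental regulators that are typical Polycomb targets, 54 were tested and 0 were called by the same tools, with 4 at an unadjusted p under 0.05 (median −0.02). One of them, TBX3, a limb and heart factor, was at 58.1, 57.9 and 59.6 CPM with DMSO and 64.6, 62.8 and 68.4 CPM with GSK343 (log2 fold change 0.16 ± 0.043, adjusted p = 0.0739), and with the length and GC correction it was called. Without GSK343 replicate 3, 1 of these regulators was called lower. The remaining 28 regulators did not pass the count filter, and neuronal and forebrain factors such as NEUROG1 and OTX2 had 0 counts in all 6 libraries.

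A shorter list held 18 genes that have been described as repressed by EZH2 in tumour cells. Of 17 tested, 2 were called higher and 0 lower (median 0.06), against 1.49% of all tested genes called higher. At an edgeR unadjusted p under 0.05, 7 were higher and 0 lower, against 9.59% and 9.55% of all tested genes. CDKN1C encodes p57, an inhibitor of cyclin-dependent kinases, and was at 15.4, 15.2 and 16.1 CPM with DMSO and 23.1, 22.1 and 18.8 CPM with GSK343. FBXO32, a ubiquitin ligase subunit linked to atrophy and cell death, was at 7.56, 7.299 and 7.06 CPM with DMSO and 9.71, 9.84 and 9.81 CPM with GSK343. Both were higher in every GSK343 library than in any DMSO library, with log2 fold changes of 0.45 ± 0.077 (adjusted p = 0.0128) and 0.42 ± 0.077 (adjusted p = 0.0158). CDKN1C was lost without any 1 of the DMSO libraries or GSK343 replicate 2, and FBXO32 without DMSO replicate 2 or 3 or GSK343 replicate 2 (edgeR adjusted p up to 0.0932). CDH1, the epithelial cadherin of that list, had 0, 1 and 0 counts with DMSO and 1, 2 and 4 with GSK343. The list count was 1, 0 and 0 without DMSO replicates 1, 2 and 3 and 2, 0 and 3 without GSK343 replicates 1, 2 and 3. It was 5 with the length and GC correction and 1 in a fit of all 12 libraries.

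Genes below the count filter were also searched for a switch from silent to transcribed. With DMSO at 0 in all 3 libraries, 37 genes had at least 1 count in each GSK343 library, and 21 genes had the reverse pattern. With at least 3 counts asked for in each library the numbers were 2 and 0. Those 2 genes were CGB5, a chorionic gonadotropin beta gene with near-identical copies among which reads are divided by estimate, at 7 counts in each GSK343 library, and PAPPA-AS1, a transcript antisense to PAPPA, at 3, 5 and 12 counts. Neither was in a Polycomb list, and 6006 genes had 0 counts in all 6 libraries.

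Among the lists examined, those of cholesterol synthesis had the highest share of members called higher. Cells make cholesterol from acetyl-CoA in 2 stages: the mevalonate pathway, which runs through HMGCS1 to isoprenoid units, and the sterol branch, which begins with squalene. The transcription factor SREBP-2, the product of SREBF2, raises these enzymes when membrane sterol falls, and INSIG1 holds SREBP-2 back in the endoplasmic reticulum when sterol is plentiful. Of 9 mevalonate genes, 5 rose and 0 fell (median log2 fold change 0.24), and of 13 tested genes of the sterol branch, 9 rose and 0 fell (median 0.31), against 1.49% of all genes called higher. All 14 rises had non-overlapping groups, as had all 422 called genes.

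HMGCS1, which makes HMG-CoA (chromosome 5, 43289395 to 43313512, minus strand), was at 41.8, 40.3 and 43.1 CPM with DMSO and 68.7, 65.3 and 67.5 CPM with GSK343. The lowest GSK343 library was well above the highest DMSO library, and the log2 fold change was 0.69 ± 0.043 (adjusted p = 4.09e-05). The isomerase gene IDI1 was at 37.4, 37.9 and 40.2 CPM with DMSO and 51.3, 48.1 and 48.5 CPM with GSK343. Its groups did not overlap either, with a log2 fold change of 0.36 ± 0.046. MVK and MVD, kinase and decarboxylase of mevalonate, rose by 0.24 ± 0.054 and 0.26 ± 0.055. Their calls were lost without any 1 of the DMSO libraries or GSK343 replicate 1 or 2 (edgeR adjusted p up to 0.174), whereas HMGCS1 and IDI1 were in the core. The mevalonate count was 3, 3 and 3 without DMSO replicates 1, 2 and 3 and 3, 3 and 5 without GSK343 replicates 1, 2 and 3.

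In the sterol branch, MSMO1, a demethylating oxidase, had the largest difference, from 12.9, 14.3 and 13.6 to 19.6, 19.7 and 21.2 CPM in the 3 libraries of each group. DHCR7, a reductase that completes cholesterol, was at 55.3, 60.6 and 58.7 CPM with DMSO and 77.1, 79.6 and 76.2 CPM with GSK343. FDFT1, the squalene synthase, was at 110.2, 112 and 111 CPM with DMSO and 145, 145 and 143 CPM with GSK343, and SQLE, the squalene epoxidase and a second control point of the pathway, at 37.6, 37.3 and 36.9 CPM with DMSO and 46.4, 47.97 and 48.6 CPM with GSK343. All 3 GSK343 values lay above all DMSO values in each of these 4 genes, which were in the core, with log2 fold changes from 0.35 for SQLE to 0.57 for MSMO1. SC5D rose by 0.31 ± 0.048 (lost without DMSO replicate 2, adjusted p = 0.0722). Beyond the genes the naming rule takes, HSD17B7, CYP51A1 and LSS rose by 0.39 ± 0.069, 0.23 ± 0.045 and 0.19 ± 0.044, and these 3 calls were lost without DMSO replicate 2 or 3 or GSK343 replicate 2, those of CYP51A1 and LSS also without DMSO replicate 1, and that of LSS without GSK343 replicate 1 (edgeR adjusted p up to 0.224). The count for the branch was 7, 5 and 6 without DMSO replicates 1, 2 and 3 and 8, 6 and 10 without GSK343 replicates 1, 2 and 3.

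Of 20 tested genes of sterol sensing, uptake and transport, 4 rose and 0 fell (median 0.05). SREBF2 itself (chromosome 22, 41833079 to 41907308, plus strand) was at 81.2, 81.4 and 80.5 CPM with DMSO and 104, 112 and 106 CPM with GSK343. Its groups were well apart, with a difference of 0.41 ± 0.037 on the log2 scale (adjusted p = 2.03e-04). INSIG1 was at 14.7, 15.04 and 15.3 CPM with DMSO and 26.7, 24.6 and 22.99 CPM with GSK343 and STARD4, a carrier of cholesterol through the cytosol, at 8.86, 8.25 and 8.33 CPM with DMSO and 12.9, 12.4 and 14.5 CPM with GSK343. Both were higher in every GSK343 library, by 0.72 ± 0.065 (adjusted p = 1.79e-04) and 0.65 ± 0.083 (adjusted p = 0.00217), and all 3 genes were in the core. LIPA, the lysosomal lipase that frees cholesterol from lipoprotein, rose by 0.19 ± 0.041, lost without any 1 of the DMSO libraries or GSK343 replicate 1 or 2 (edgeR adjusted p up to 0.165). ABCA1, an exporter induced by sterol excess and chosen after its values were seen, was at 7.56, 7.83 and 8.54 CPM with DMSO and 5.02, 7.32 and 7.09 CPM with GSK343 and did not pass (adjusted p = 0.239).

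Fatty acid genes were called in both directions. SREBF1 encodes SREBP-1, the lipogenic relative of SREBP-2, and was at 93, 98.5 and 96.6 CPM with DMSO and 77.1, 78.9 and 74.3 CPM with GSK343. It was lower in all 3 GSK343 libraries, by −0.32 ± 0.039 (adjusted p = 0.00154), the opposite direction to SREBF2. SCD, the desaturase that makes oleate, was at 230.4, 232 and 234 CPM with DMSO and 276, 278 and 288 CPM with GSK343 and rose by 0.27 ± 0.031 (adjusted p = 9.63e-04). SREBF1 and SCD were in the core. ACSS2 and FADS1 rose by 0.24 ± 0.055 and 0.14 ± 0.034, lost without any 1 of the DMSO libraries or GSK343 replicate 1 or 2 (edgeR adjusted p up to 0.217). In all, 3 of 22 tested fatty acid genes rose, 1 fell and 18 were not called (median 0.05), and the rises numbered 1, 1 and 1 without DMSO replicates 1, 2 and 3 and 1, 1 and 5 without GSK343 replicates 1, 2 and 3.

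**Figure D2:**
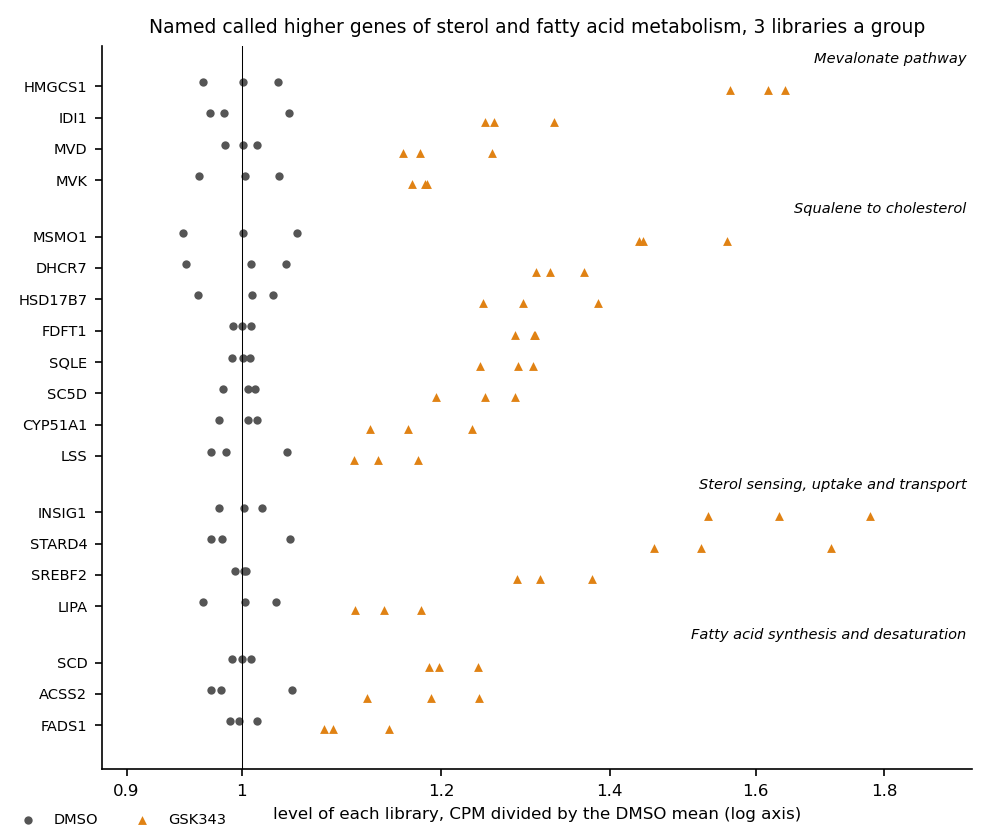
Level of each of the 6 libraries divided by the DMSO mean of the gene (CPM ratio, log axis), for the called higher genes named in the text from 4 lists of sterol and fatty acid metabolism, with circles for DMSO and triangles for GSK343. In each gene the 3 triangles lie to the right of the 3 circles, furthest for INSIG1, STARD4 and HMGCS1.

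The sterol regulatory element, the site to which SREBP binds, was searched as TCACCCCAC on both strands of the 250 bases before each start in RefSeq promoters (GRCh38.p14). It was present in 95 of 27305 promoters (0.348%) and in 37 of the 11826 promoters of tested genes (0.313%). It was in 0 of 7 mevalonate promoters and 0 of 10 of the sterol branch. Of 17 promoters of the sensing list 1 held it, that of SREBF2. This stretch of the SREBF2 promoter, chr22:41832942-41833010 on the plus strand, is shown because the gene rose; capitals mark the element, which begins 133 bases before the start:
SREBF2: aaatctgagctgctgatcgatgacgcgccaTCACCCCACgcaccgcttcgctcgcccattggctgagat

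The list of serine and one-carbon metabolism had the highest share of members called lower. Serine is made from a glycolytic intermediate by PHGDH, PSAT1 and PSPH, and feeds glycine and the folate carriers of one-carbon units used for nucleotides. Many of these genes, with amino acid transporters and aminoacyl-tRNA synthetases, are targets of ATF4, the transcription factor of the integrated stress response. Of 19 tested genes of serine, glycine and one-carbon metabolism, 8 fell and 0 rose (median −0.08), against 1.32% of all genes called lower. Of 20 aminoacyl-tRNA synthetases, 6 fell and 0 rose (median −0.09), and of 21 amino acid transporters, 4 fell and 0 rose (median −0.04).

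PSAT1, the second enzyme of serine synthesis (chromosome 9, 78297143 to 78330093, plus strand), was at 392, 396 and 389 CPM with DMSO and 317, 314 and 311 CPM with GSK343. The gap between the groups was many times the range within either of them, with a log2 fold change of −0.32 ± 0.028 (adjusted p = 1.58e-04). PHGDH, the first enzyme, was at 351, 339.9 and 340.5 CPM with DMSO and 295, 293 and 287 CPM with GSK343, a difference of −0.24 ± 0.030 (adjusted p = 0.00214). CBS, which draws serine into cysteine synthesis, was at 40.1, 38.96 and 37.7 CPM with DMSO and 30.2, 32.5 and 30.2 CPM with GSK343, a difference of −0.33 ± 0.047 (adjusted p = 0.00492). These 3 genes were in the core. The mitochondrial one-carbon genes MTHFD2, MTHFD1L and ALDH1L2 fell by 0.19, 0.21 and 0.27 on the log2 scale. Their calls were lost without any 1 of the DMSO libraries, MTHFD1L also without GSK343 replicate 2 and ALDH1L2 without GSK343 replicate 1 or 2 (edgeR adjusted p up to 0.145). PSPH and TYMS, named beyond the 6 of the rule, fell by 0.27 and 0.16, lost without any 1 of the DMSO libraries or GSK343 replicate 2, and PSPH also without GSK343 replicate 1 (up to 0.181). The list count was 3, 3 and 3 without DMSO replicates 1, 2 and 3 and 6, 4 and 8 without GSK343 replicates 1, 2 and 3.

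Among synthetases, YARS, for tyrosine, was at 324, 327 and 324 CPM with DMSO and 278, 282 and 281 CPM with GSK343, and MARS, for methionine, at 392, 397 and 395 CPM with DMSO and 339, 346 and 338 CPM with GSK343. Both were lower in each GSK343 library than in any DMSO library, by 0.21 and 0.21 on the log2 scale (adjusted p = 0.00272 and 0.003103), and both were in the core. GARS and AARS fell by 0.18 and 0.18, GARS lost without DMSO replicate 1 or 2 and AARS without DMSO replicate 2 or 3 (edgeR adjusted p up to 0.0925). CARS and SARS fell by 0.19 and 0.13, lost without any 1 of the DMSO libraries or GSK343 replicate 1 or 2 (up to 0.186). Without the test, 15 of the 20 synthetases had all 3 GSK343 libraries below all 3 DMSO libraries, as had 12.4% of all tested genes. Synthetase falls numbered 3, 2 and 3 without DMSO replicates 1, 2 and 3 and 4, 4 and 8 without GSK343 replicates 1, 2 and 3.

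Transporter falls were of SLC7A5 and SLC3A2, the light and heavy chain of the leucine exchanger LAT1, of SLC1A5, a glutamine carrier, and of SLC6A9, a glycine carrier. SLC7A5 was at 1097, 1125 and 1149 CPM with DMSO and 926, 1003 and 996 CPM with GSK343, and SLC1A5 at 390.1, 411 and 415 CPM with DMSO and 340.1, 352 and 316 CPM with GSK343. Both fell without overlap, by 0.20 and 0.27 on the log2 scale, and leaving out DMSO replicate 2 or 3 ended either call (edgeR adjusted p up to 0.102). SLC3A2 fell by 0.16, lost without any 1 of the DMSO libraries or GSK343 replicate 2 (up to 0.117), and SLC6A9 by 0.33, lost without any 1 of the 6 libraries (up to 0.209). Transporter calls numbered 2, 0 and 0 without DMSO replicates 1, 2 and 3 and 3, 2 and 4 without GSK343 replicates 1, 2 and 3.

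In the remaining list of the ATF4 response, calls went both ways, with 3 higher and 2 lower of 23 tested (median −0.07, 14 below 0). At an edgeR unadjusted p under 0.05, 3 were higher and 10 lower, against 9.59% and 9.55% of all tested genes. With the length and GC correction, 3 were called higher and 5 lower. ASNS, the asparagine synthetase, was at 155, 149 and 152 CPM with DMSO and 130.3, 128 and 128 CPM with GSK343 and fell by 0.24 (adjusted p = 0.00272), a core call. TRIB3, a pseudokinase that feeds back on the pathway, was at 80.1, 81.6 and 81.7 CPM with DMSO and 68.7, 70.5 and 66.02 CPM with GSK343 and fell by 0.25 (lost without DMSO replicate 2 or 3, adjusted p up to 0.0728). GDF15, a secreted stress factor, was at 11.7, 11.8 and 11.2 CPM with DMSO and 16.2, 16.3 and 14.6 CPM with GSK343 and rose by 0.44 ± 0.070 (lost without DMSO replicate 2 or 3, adjusted p up to 0.0553). PPP1R15A, the phosphatase subunit that ends the response, rose by 0.20 ± 0.036, and STC2, a secreted glycoprotein, by 0.19 ± 0.042. PPP1R15A was lost without DMSO replicate 2 or 3 or GSK343 replicate 2, and STC2 without any 1 of the DMSO libraries or GSK343 replicate 1 or 2 (edgeR adjusted p up to 0.195). ATF4 itself, named after its values were seen, was at 355, 346 and 341 CPM with DMSO and 335, 334 and 308 CPM with GSK343 (log2 fold change −0.09 ± 0.038, adjusted p = 0.203). Within this list the rises numbered 2, 0 and 0 without DMSO replicates 1, 2 and 3 and 2, 1 and 3 without GSK343 replicates 1, 2 and 3. Its falls numbered 2, 1 and 2 without DMSO replicates 1, 2 and 3 and 2, 2 and 3 without GSK343 replicates 1, 2 and 3.

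A C/EBP-ATF response element, the composite site bound by ATF4, was searched as TGATGNAA on both strands of the same 250 bases. It occurred in 3.19% of all promoters and in 1.55% of those of tested genes, from which the lists are drawn. It was in 3 of 21 of the ATF4 list and in 1 of 14 of the serine and one-carbon list. Called lower genes had it in 2.47% of 162 promoters and called higher genes in 1.71% of 175. Among genes of these 2 lists that fell, it was in ASNS (chr7:97872439-97872506, minus strand) and MTHFD1L (chr6:150866327-150866394, plus strand). Both are printed so that the site can be read in its surroundings, with the element in capitals:
ASNS: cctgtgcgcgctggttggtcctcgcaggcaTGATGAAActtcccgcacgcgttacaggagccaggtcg
MTHFD1L: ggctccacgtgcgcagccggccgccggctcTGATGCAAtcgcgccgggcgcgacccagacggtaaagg

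Heat shock genes were also among the falls. Most of their products are cytosolic chaperones that fold new or damaged proteins, and the factor HSF1 induces them through heat shock elements. Of 29 tested genes, 8 fell, 0 rose and 21 were not called (median −0.09), against 1.32% of all genes called lower. HSPA1A, the inducible HSP70 gene, was at 146, 143 and 141 CPM with DMSO and 106, 104 and 106 CPM with GSK343, and its neighbour HSPA1B at 126, 127 and 125 CPM with DMSO and 91.1, 93.8 and 92.4 CPM with GSK343. They fell by 0.44 ± 0.033 and 0.45 ± 0.033 (adjusted p = 7.48e-05 for both), and both were in the core. Their coding sequences are nearly identical, so the split of reads between them is an estimate and they are not independent observations.

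DNAJB1, the HSP40 that hands substrates to HSP70, was at 226, 229 and 224 CPM with DMSO and 198, 194 and 194 CPM with GSK343 and fell by 0.21 (adjusted p = 0.00433, lost without DMSO replicate 2, where it was 0.0561). HSPA8, the constitutive HSC70, was at 3014, 2985 and 2980 CPM with DMSO and 2734, 2673 and 2708 CPM with GSK343. It fell by 0.15, and DNAJA1, another HSP40, by 0.15, both lost without any 1 of the DMSO libraries or GSK343 replicate 2 (edgeR adjusted p up to 0.118). HSPH1, and beyond the rule HSF1 and STIP1, fell by 0.15, 0.18 and 0.13, each lost without any 1 of the DMSO libraries or GSK343 replicate 1 or 2 (up to 0.177). The length and GC correction ended the HSF1 call (edgeR adjusted p = 0.118), and the fit of all 12 libraries those of HSF1 and HSPH1. HSP90AA1, named after its values were seen, was at 3479, 3512 and 3527 CPM with DMSO and 3302, 3237 and 3367 CPM with GSK343, without overlap but not called by edgeR (adjusted p = 0.116). It was called lower by DESeq2 (adjusted p = 0.0459), with the length and GC correction (edgeR adjusted p = 0.0116) and without GSK343 replicate 3. Endoplasmic reticulum chaperones gave 0 calls of 20 with edgeR and 3 with an unadjusted p under 0.05, all lower (DESeq2 called 1 and limma-voom 0). CALR, one of them, was at 1440, 1436 and 1452 CPM with DMSO and 1409, 1410 and 1353 CPM with GSK343. Heat shock falls numbered 3, 2 and 3 without DMSO replicates 1, 2 and 3 and 5, 3 and 9 without GSK343 replicates 1, 2 and 3.

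**Figure D3:**
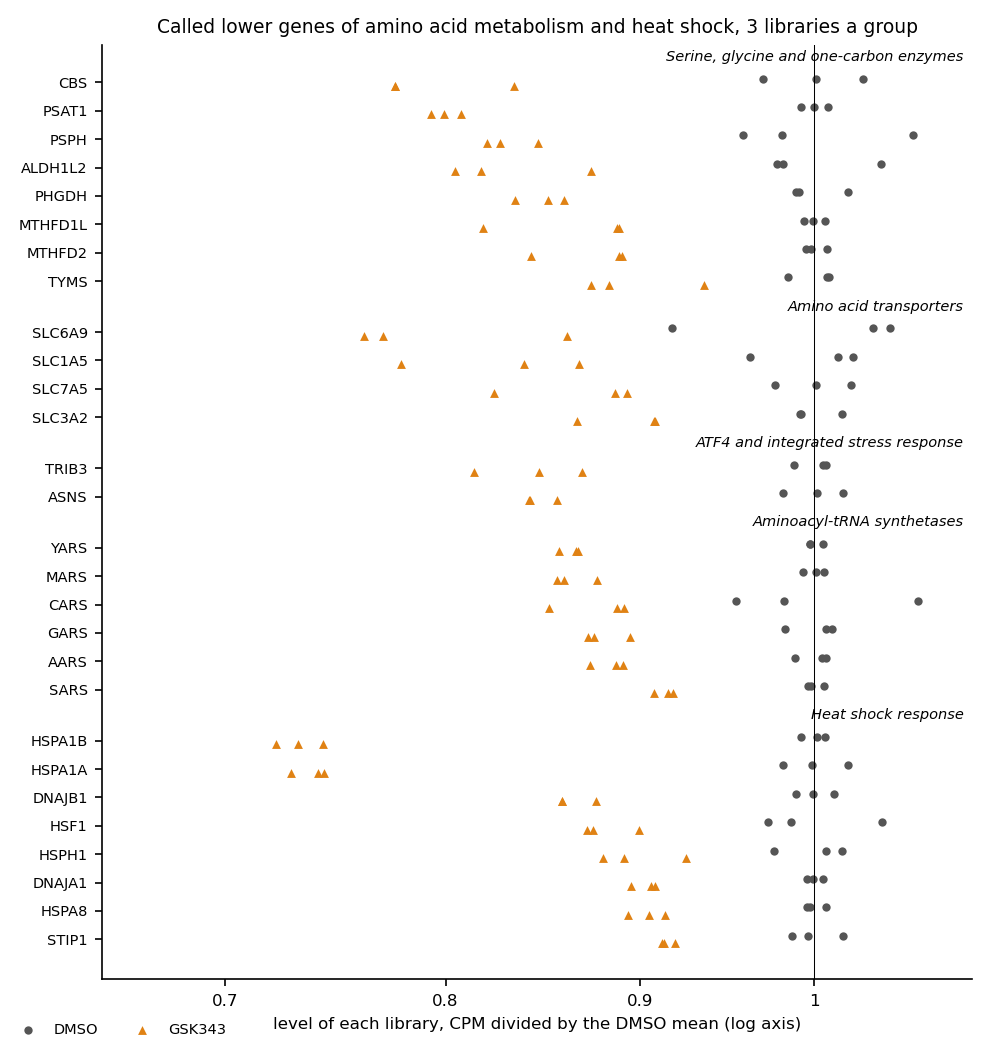
Level of each of the 6 libraries divided by the DMSO mean of the gene (CPM ratio, log axis), for the called lower genes of 5 lists, with circles for DMSO and triangles for GSK343. The triangles lie to the left of all circles of the same gene, furthest for HSPA1A and HSPA1B, and the 3 called higher genes of the ATF4 list are not drawn.

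The heat shock element was searched as 2 inverted units, GAANNTTC, which reads the same on both strands. It occurred in 5.85% of all promoters, in 4.19% of those of tested genes and in 11 of 26 promoters of the heat shock list (42.3%). Called lower genes had it in 6.17% of 162 promoters and called higher genes in 4.57% of 175. Of the 8 genes that fell, HSPA1A (chr6:31815407-31815474, plus strand), HSPA1B (chr6:31827603-31827670, plus strand), HSPA8 (chr11:123062149-123062216, minus strand) and DNAJA1 (chr9:33025045-33025112, plus strand) are printed, with the element in capitals, to show how alike the HSPA1A and HSPA1B sites are and how the others differ. HSPA8 had a further match in its 250 bases that is not printed:
HSPA1A: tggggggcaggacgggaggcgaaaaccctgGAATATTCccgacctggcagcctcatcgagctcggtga
HSPA1B: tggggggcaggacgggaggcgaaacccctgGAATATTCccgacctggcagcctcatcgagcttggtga
HSPA8: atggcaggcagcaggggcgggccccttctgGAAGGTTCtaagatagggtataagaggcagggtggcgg
DNAJA1: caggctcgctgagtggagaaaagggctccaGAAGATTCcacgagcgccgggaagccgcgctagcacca

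A few secreted inflammatory factors rose. Of 25 tested chemokines and cytokines, 4 rose, 0 fell and 21 were not called (median 0.24, 21 above 0). Of all tested genes, 1.49% were called higher. IL24, a cytokine of the interleukin-10 family, was at 17.2, 16.3 and 14.9 CPM with DMSO and 26.8, 24.2 and 24.1 CPM with GSK343 and rose by 0.63 ± 0.068 (adjusted p = 5.83e-04). CXCL8, the neutrophil chemokine interleukin-8, was at 70.8, 74.8 and 73.99 CPM with DMSO and 86.97, 85.9 and 89.6 CPM with GSK343 and rose by 0.26 ± 0.038 (adjusted p = 0.00666). Both were in the core, and their groups did not overlap. IL11 and IL1A rose by 0.29 ± 0.046 and 0.57 ± 0.11, IL11 lost without DMSO replicate 2 or 3 and IL1A without DMSO replicate 1 or 2 or GSK343 replicate 1 (edgeR adjusted p up to 0.113). CXCL10, an interferon-induced chemokine named after its values were seen, was at 0.484, 0.415 and 0.302 CPM with DMSO and 0.913, 1.22 and 0.734 CPM with GSK343, near the detection limit, and did not pass (edgeR adjusted p = 0.0529). It passed without a count filter (0.0393), with the length and GC correction (0.04404) and without GSK343 replicate 3 (0.0267). Calls in the list numbered 4, 2 and 3 without DMSO replicates 1, 2 and 3 and 3, 4 and 7 without GSK343 replicates 1, 2 and 3.

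Of 22 metalloproteinases, their inhibitors and plasminogen activators, 2 rose and 0 fell, against 1.49% of all tested genes called higher. MMP3, stromelysin, was at 8.56, 9.08 and 6.97 CPM with DMSO and 16.2, 15.1 and 14.1 CPM with GSK343, a log2 fold change of 0.88 ± 0.098 (adjusted p = 9.21e-04), a core call. MMP1, the interstitial collagenase, was at 12.2, 11.8 and 13.1 CPM with DMSO and 14.9, 17.3 and 15.7 CPM with GSK343 and rose by 0.37 ± 0.075, lost without any 1 of the DMSO libraries or GSK343 replicate 2 (edgeR adjusted p up to 0.149). PTGES, the inducible synthase of prostaglandin E2, was at 7.29, 8.604 and 7.27 CPM with DMSO and 15.1, 13.8 and 13.9 CPM with GSK343 and rose by 0.88 ± 0.085 (adjusted p = 2.72e-04), the 1 called gene of 13 in its list and in the core. Subunits and feedback targets of NF-kB, a common inducer of these factors, gave 0 calls of 23 with edgeR, DESeq2 and limma-voom and 5 with an unadjusted p under 0.05, a share near the 19.1% of all tested genes; 1 was called higher without GSK343 replicate 3 and 2 with the length and GC correction. IER3, one of them, was at 171, 159.9 and 163 CPM with DMSO and 168, 161 and 156 CPM with GSK343, with overlapping groups.

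Of 44 interferon-stimulated genes, 4 rose and 0 fell (9.09% called), against 1.49% of all tested genes called higher. In this list 41 had a log2 fold change above 0 (median 0.26). At an edgeR unadjusted p under 0.05, 24 were higher and 0 lower, against 9.59% and 9.55% of all tested genes. OAS1, which senses double-stranded RNA, was at 7.198, 5.49 and 5.82 CPM with DMSO and 9.86, 9.84 and 8.83 CPM with GSK343 and rose by 0.62 ± 0.11, lost without DMSO replicate 2 or 3 or GSK343 replicate 2 (edgeR adjusted p up to 0.0925). ISG20, an exonuclease, GBP2, a GTPase, and SAMD9L, a growth-restraining factor, rose by 0.24 ± 0.046, 0.36 ± 0.083 and 0.34 ± 0.078. ISG20 was lost without DMSO replicate 2 or 3 or GSK343 replicate 1 or 2, GBP2 also without DMSO replicate 1, and SAMD9L without any 1 of the 6 libraries (up to 0.201). The summed level of the list was 839 to 938 CPM with DMSO and 954 to 993 CPM with GSK343. Of 25 genes of antigen presentation, 3 class II genes rose and 0 fell (12% called, median 0.12, 22 above 0). At an edgeR unadjusted p under 0.05, 11 of them were higher and 0 lower. HLA-DRA, the class II alpha chain, was at 185, 185 and 178 CPM with DMSO and 224, 210.1 and 197 CPM with GSK343, and HLA-DPA1 and HLA-DMA rose with it, by 0.17 ± 0.037 and 0.22 ± 0.049 against 0.20 ± 0.044. These 3 calls were lost without any 1 of the DMSO libraries or GSK343 replicate 1 or 2 (up to 0.212). Interferon list calls numbered 8, 0 and 0 without DMSO replicates 1, 2 and 3 and 1, 0 and 3 without GSK343 replicates 1, 2 and 3. Presentation calls numbered 1, 0 and 0 without DMSO replicates 1, 2 and 3 and 0, 0 and 7 without GSK343 replicates 1, 2 and 3. They numbered 0 in the fit of all 12 libraries.

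A minority of proliferation genes were called, all lower and by small amounts, against 1.32% of all genes called lower. Of 30 genes of the MCM helicase and origin licensing, 5 fell and 0 rose (median −0.09, 24 below 0). Of 40 G1/S genes and E2F targets, 8 fell and 0 rose (median −0.09, 33 below 0). Of 45 genes of G2/M and mitosis, 5 fell and 0 rose (median −0.09, 42 below 0). In the same order, 13, 20 and 23 were lower at an edgeR unadjusted p under 0.05, and 1, 1 and 0 were higher. Over all tested genes these shares were 9.55% lower and 9.59% higher. MCM2, a helicase subunit, was at 349, 349.8 and 346 CPM with DMSO and 301, 313 and 306 CPM with GSK343 and fell by 0.18 (lost without DMSO replicate 2 or 3, adjusted p up to 0.0925). CDC20, which switches on the ubiquitin ligase of anaphase, was at 401, 398 and 392 CPM with DMSO and 348, 351 and 340.4 CPM with GSK343 and fell by 0.20 (lost without DMSO replicate 2, where it was 0.0713). MYBL2, a factor that switches on mitotic genes, fell by 0.20, and POLD1, the catalytic subunit of DNA polymerase delta, by 0.19, both lost without DMSO replicate 2 or 3 (edgeR adjusted p up to 0.0988).

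UHRF1, which guides maintenance DNA methylation, was at 250, 245 and 254 CPM with DMSO and 204, 219 and 223 CPM with GSK343 and fell by 0.21, and DNMT1, the methyltransferase it recruits and a gene named beyond the rule, was at 490.1, 493 and 496 CPM with DMSO and 428, 446 and 452 CPM with GSK343 and fell by 0.16. RRM2 and TK1, of nucleotide supply, fell by 0.16 and 0.18, and the mitotic kinase PLK1 by 0.18. CCND3, a D-type cyclin, fell by 0.20. These 6 calls were lost without any 1 of the DMSO libraries, and those of DNMT1 and RRM2 also without GSK343 replicate 2 (edgeR adjusted p up to 0.131). The fit of all 12 libraries ended those of DNMT1 (edgeR adjusted p = 0.345) and TK1 (0.102). None of the proliferation genes was in the core. Licensing falls numbered 1, 0 and 0 without DMSO replicates 1, 2 and 3 and 2, 2 and 7 without GSK343 replicates 1, 2 and 3. G1/S falls numbered 1, 0 and 0 without DMSO replicates 1, 2 and 3 and 9, 4 and 13 without GSK343 replicates 1, 2 and 3. Mitotic falls numbered 2, 0 and 1 without DMSO replicates 1, 2 and 3 and 3, 3 and 15 without GSK343 replicates 1, 2 and 3. Among CDK inhibitors and p53 targets, 1 of 34 rose, CDKN1C, and 0 fell. That is 2.94% called, near the 2.81% of all tested genes. The BCL-2 family, which governs cell death, gave 0 calls of 19 with edgeR, DESeq2 and limma-voom and 5 with an unadjusted p under 0.05, with 1 called higher without GSK343 replicate 3.

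Single genes of stress and organelle lists passed, to be read against 1.49% of all tested genes called higher. SQSTM1, the autophagy receptor p62, was at 594, 590 and 603 CPM with DMSO and 837, 834 and 749.5 CPM with GSK343 and rose by 0.44 ± 0.041 (adjusted p = 2.42e-04), a core call. WIPI1, which marks forming autophagosomes, was at 10.9, 12.4 and 10.6 CPM with DMSO and 16.2, 14.01 and 14.9 CPM with GSK343 and rose by 0.41 ± 0.083 (lost without DMSO replicate 1 or 3 or GSK343 replicate 1, adjusted p up to 0.111); the other 29 of 31 autophagy genes were not called. GPNMB, a glycoprotein of melanosomes and lysosomes, was at 46.2, 48.6 and 46.6 CPM with DMSO and 68.4, 67.7 and 67.03 CPM with GSK343 and rose by 0.52 ± 0.039 (adjusted p = 7.48e-05), a core call. CTSL, a lysosomal protease, rose by 0.22 ± 0.042, lost without any 1 of the DMSO libraries or GSK343 replicate 2 (edgeR adjusted p up to 0.126), and the other 40 of 42 lysosome genes were not called. Of 27 tested NRF2 targets, HMOX1, heme oxygenase, and AKR1C2, an aldo-keto reductase, rose by 0.31 ± 0.060 and 0.42 ± 0.079. HMOX1 was lost without any 1 of the DMSO libraries or GSK343 replicate 1 or 2, and AKR1C2 without DMSO replicate 2 or 3 or GSK343 replicate 2 (up to 0.116). The antioxidant response element bound by NRF2, searched as TGACNNNGC on both strands, was in 4 of 21 promoters of that list. It was in 11% of all promoters and in 12% of those of tested genes.

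Of 28 hypoxia genes, 5 rose and 0 fell (median 0.06), against 1.49% of all tested genes called higher. CA9, a carbonic anhydrase under strict control of HIF, was at 1.42, 2.02 and 1.12 CPM with DMSO and 3.35, 3.01 and 3.51 CPM with GSK343 and had a large log2 fold change at a low level, 1.11 ± 0.20 (adjusted p = 0.0144, lost without DMSO replicate 1 or 3, up to 0.0635). PFKFB4, a regulator of glycolytic flux, was at 35.2, 35.3 and 34.9 CPM with DMSO and 42.5, 43.02 and 43.98 CPM with GSK343 and rose by 0.30 ± 0.040, a core call. MXI1, an antagonist of MYC, rose by 0.37 ± 0.060 (lost without DMSO replicate 2 or 3, adjusted p up to 0.0713) and NDRG1 by 0.16 ± 0.037 (lost without any 1 of the DMSO libraries or GSK343 replicate 1 or 2, up to 0.1703). The fifth was STC2. In glycolysis, ALDOC and ENO2 rose by 0.39 ± 0.059 and 0.21 ± 0.044, and the glucose transporter SLC2A1 fell by 0.16, so that 2 of 21 rose and 1 fell. ALDOC was lost without DMSO replicate 2, SLC2A1 without any 1 of the DMSO libraries or GSK343 replicate 2, and ENO2 additionally without GSK343 replicate 1 (edgeR adjusted p up to 0.141). Hypoxia calls numbered 2, 2 and 1 without DMSO replicates 1, 2 and 3 and 3, 3 and 6 without GSK343 replicates 1, 2 and 3.

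Few genes of melanoma state and of the matrix passed the test. Of 17 tested melanocyte lineage genes, GPNMB and RAB38, a GTPase of melanosome transport, rose (11.8% called, median 0.16). Of all tested genes, 1.49% were called higher. RAB38 was at 14.9, 15.2 and 13.8 CPM with DMSO and 18.8, 16.96 and 17.7 CPM with GSK343, with a call lost without any 1 of the DMSO libraries or GSK343 replicate 1 or 2 (edgeR adjusted p up to 0.1902). MITF, the master regulator of the lineage, named after its values were seen, was at 43.2, 43.6 and 44.8 CPM with DMSO and 43.8, 46 and 50.9 CPM with GSK343 and was not called (adjusted p = 0.363). Of 29 genes of the undifferentiated state, TGFBI, a matrix protein induced by TGF-beta, was the 1 called by edgeR, at 223, 218 and 206 CPM with DMSO and 261, 249 and 250.4 CPM with GSK343 (lost without DMSO replicate 2 or 3, adjusted p up to 0.0722). AXL, the receptor that marks that state, was at 470.2, 476 and 487 CPM with DMSO and 403, 434 and 464 CPM with GSK343, lower in every GSK343 library but not called by edgeR (adjusted p = 0.117), and called by DESeq2 and without GSK343 replicate 3. In all, DESeq2 called 2 genes of that state lower, limma-voom 1, and edgeR 4 without GSK343 replicate 3.

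TGF-beta and BMP targets gave 5 rises and 0 falls of 29 (median 0.11), against 1.49% of all tested genes called higher. PMEPA1, a membrane feedback inhibitor of TGF-beta signalling, was at 74.8, 77.4 and 78.7 CPM with DMSO and 99.7, 103 and 101 CPM with GSK343 and rose by 0.39 ± 0.037 (adjusted p = 2.12e-04). ID2, a helix-loop-helix inhibitor of differentiation factors, was at 2.93, 3.06 and 2.505 CPM with DMSO and 4.75, 4.66 and 5.19 CPM with GSK343 and rose by 0.78 ± 0.12. Both were in the core. ID3, its relative, FST, which traps activin, and TGFBI rose by 0.20 ± 0.042, 0.20 ± 0.035 and 0.23 ± 0.037, with ID3 and FST lost without any 1 of the DMSO libraries and ID3 also without GSK343 replicate 1 or 2 (edgeR adjusted p up to 0.195). ITGA1, the collagen-binding integrin chain, was at 54.1, 57.3 and 58.1 CPM with DMSO and 72.9, 70.3 and 71.7 CPM with GSK343 and rose by 0.34 ± 0.041, the 1 call of 22 integrins and cadherins and a core call, which a fit of all 12 libraries ended (adjusted p = 0.188). The laminin chains LAMA4 and LAMA1 rose by 0.17 ± 0.031 and 0.20 ± 0.045, 2 of 30 matrix genes. Both calls were lost without any 1 of the DMSO libraries or GSK343 replicate 2, and LAMA1 also without GSK343 replicate 1 (edgeR adjusted p up to 0.18). The fit of all 12 libraries ended both as well (edgeR adjusted p = 0.5995 for LAMA4 and 0.49 for LAMA1). LAMA1 was also lost by DESeq2, by limma-voom and with the replicate number as a term. With XL413 their log2 fold changes were −0.10 ± 0.15 and −0.06 ± 0.14. In the list of MAPK output, the pathway downstream of BRAF, EPHA4 rose by 0.33 ± 0.074 and EPHA2 fell by 0.19 while 27 of 29 were not called; EPHA4 was lost without any 1 of the DMSO libraries or GSK343 replicate 1 or 2, and EPHA2 without DMSO replicate 2 or 3 or GSK343 replicate 1 (up to 0.153). TGF-beta list calls numbered 3, 2 and 2 without DMSO replicates 1, 2 and 3 and 5, 4 and 6 without GSK343 replicates 1, 2 and 3.

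Several large gene families gave 0 calls with edgeR and limma-voom, and, except for YAP/TEAD targets, with DESeq2: cytosolic ribosomal proteins (78 tested, median 0.06, 1 with an unadjusted p under 0.05), subunits of the respiratory chain (61 tested, 4), proteasome subunits (31 tested, 4), YAP/TEAD targets (23 tested, 10, with 1 called higher and 3 lower by DESeq2), PRC1 subunits and H3K27 demethylases (21 tested, 5) and histone genes with polyadenylated transcripts (15 tested, 3). Leaving out GSK343 replicate 3 gave 25 ribosomal protein and 11 respiratory chain calls, all higher, 2 histone genes higher, 1 PRC1 or demethylase gene lower, and 1 YAP/TEAD target higher and 5 lower; leaving out any other library gave 0 in these lists. MYOF, a YAP target, was at 491, 489.6 and 494 CPM with DMSO and 452, 459.5 and 471 CPM with GSK343 and was called lower without that library and with the length and GC correction. The histone genes HIST1H2BK and HIST1H1C were at 16.4, 17.4 and 16.4 CPM with DMSO and 19.7, 20.7 and 16.4 CPM with GSK343 and at 9.59, 9.91 and 8.72 CPM with DMSO and 12.1, 11.5 and 10 CPM with GSK343, with overlapping groups for HIST1H2BK, all GSK343 libraries above all DMSO libraries for HIST1H1C, and neither called. Of 32 ribosome biogenesis genes, 1 was called, TCOF1, the treacle factor of ribosomal DNA transcription. It fell by 0.19, a call lost without any 1 of the DMSO libraries (edgeR adjusted p up to 0.1). In that list 29 genes were below 0 (median −0.07). At an edgeR unadjusted p under 0.05, 12 were lower and 0 higher, against 9.55% and 9.59% of all tested genes. Its calls, all lower, numbered 4 by DESeq2, 6 with the length and GC correction and 0 in a fit of all 12 libraries. The tubulin list gave 1 rise, TUBA1A (0.29 ± 0.055), and 1 fall, TUBG1 (−0.16 ± 0.032), both lost without any 1 of the DMSO libraries or GSK343 replicate 1 or 2 (up to 0.154). The epithelial keratins KRT18 and KRT14, which melanoma cells also express, fell by 0.15 and 0.27; both were lost without any 1 of the DMSO libraries or GSK343 replicate 2, and KRT14 also without GSK343 replicate 1 (up to 0.196).

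**Figure D4:**
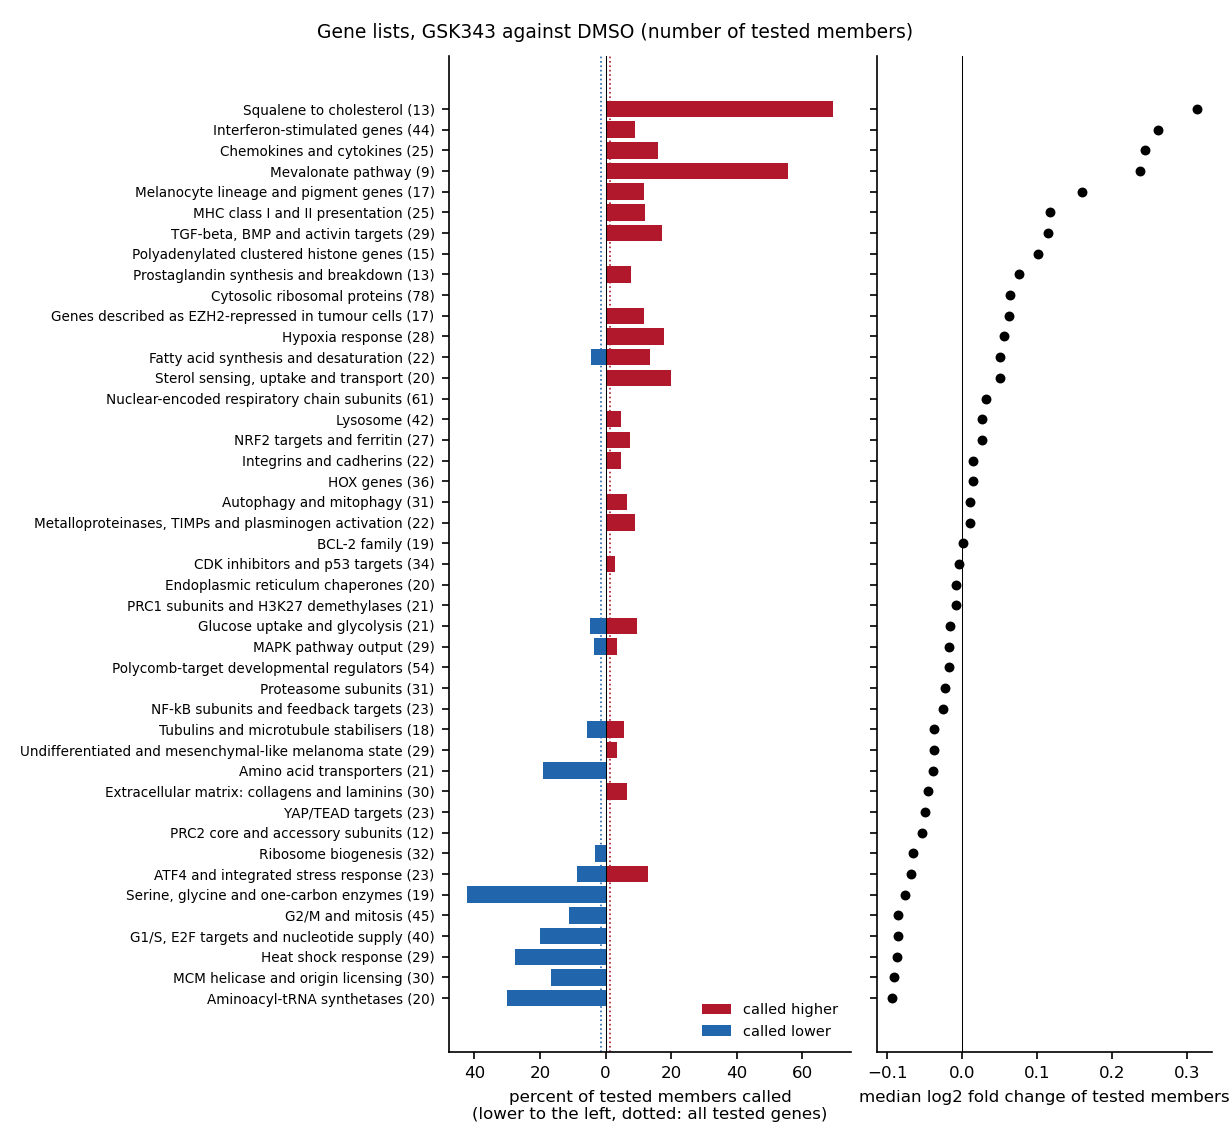
Left, percent of the tested members of 44 gene lists called higher (red, to the right) or lower (blue, to the left), with dotted lines at the 1.49% and 1.32% of all tested genes; right, the median log2 fold change of the tested members. The 2 lists of cholesterol synthesis stand out among the rises, and serine metabolism, synthetases and heat shock among the falls, while the lists of PRC2 subunits, HOX genes and developmental regulators have no bar.

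Among the genes with the largest changes at a mean of at least 1 log2 CPM, several stood outside these lists. UCN2, a stress peptide of the corticotropin-releasing family, was at 11.9, 12.8 and 11.3 CPM with DMSO and 19.02, 19.1 and 18.9 CPM with GSK343 and rose by 0.67 ± 0.065 (adjusted p = 2.76e-04). CCNA1, the germline and leukaemia cyclin A, was at 4.33, 5.01 and 4.95 CPM with DMSO and 8.58, 6.95 and 8.64 CPM with GSK343 and rose by 0.76 ± 0.11. Both were in the core. PCSK1, a protease that matures peptide hormones, was at 2.75, 1.69 and 1.99 CPM with DMSO and 4.504, 4.34 and 3.91 CPM with GSK343 and rose by 0.99 ± 0.17, lost without DMSO replicate 2 or 3 or GSK343 replicate 2 (edgeR adjusted p up to 0.0844). PDE3A, a phosphodiesterase, rose by 0.68 ± 0.11 (lost without DMSO replicate 2 or 3), the long non-coding RNA NKILA by 0.78 ± 0.13 (lost without DMSO replicate 2 or GSK343 replicate 2), and PADI3, a peptidylarginine deiminase, by 0.77 ± 0.15 (lost without any 1 of the DMSO libraries or GSK343 replicate 2; adjusted p up to 0.118 for the 3). LINC00540 and the readthrough transcript BLOC1S5-TXNDC5, which shares exons with TXNDC5, rose by 0.67 ± 0.14 and 1.01 ± 0.24; LINC00540 was lost without any 1 of the DMSO libraries or GSK343 replicate 1 or 2, and BLOC1S5-TXNDC5 without DMSO replicate 1 or 2 or GSK343 replicate 1 or 2 (up to 0.188).

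The largest fall, and the 1 beyond 1.5-fold, was NPIPB4, a member of a family of near-identical copies on chromosome 16, at 5.96, 5.55 and 6.13 CPM with DMSO and 3.62, 3.88 and 3.56 CPM with GSK343 (−0.67 ± 0.10, adjusted p = 0.00825); its share of the family's reads is an estimate, and a fit of all 12 libraries ended the call (adjusted p = 0.0876). PPME1, a methylesterase of phosphatase PP2A, was at 207, 212 and 205 CPM with DMSO and 168, 172 and 170.3 CPM with GSK343 and fell by 0.29 (adjusted p = 5.42e-04). GPT2, the mitochondrial alanine aminotransferase, was at 71.6, 70.3 and 73.4 CPM with DMSO and 59.7, 57.9 and 58.1 CPM with GSK343 and fell by 0.29 (adjusted p = 0.00227). These 3 were in the core. CNN2, an actin-binding calponin, PLEKHH3 and TMEM201, an inner nuclear membrane protein, fell by 0.29, 0.32 and 0.27. CNN2 was lost without DMSO replicate 2 or 3, PLEKHH3 without any 1 of the DMSO libraries or GSK343 replicate 1, and TMEM201 without DMSO replicate 2 or 3 or GSK343 replicate 1 or 2 (edgeR adjusted p up to 0.159). Below 1 log2 CPM, 6 of 2643 tested genes were called, all higher. KRT75, 1 of them, reached the level of the count filter in 0 DMSO libraries and 3 GSK343 libraries, so it was tested only through the group where it was high; it was the 1 such gene among the 422. Of these, TRIM34 and KRT75, named after their values were seen, were at 0.786, 1.01 and 0.966 CPM with DMSO and 2.59, 2.2 and 2.69 CPM with GSK343 and at 0.151, 0.178 and 0.121 CPM with DMSO and 0.548, 0.666 and 0.435 CPM with GSK343. TRIM34, which shares a locus with a readthrough transcript, was in the core, and KRT75 was lost without any 1 of the DMSO libraries or GSK343 replicate 1 or 2 (highest adjusted p 0.118).

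The same addition of GSK343 could be read in 6 further libraries, none shared with the first comparison, where all cells also received XL413. In that background 18 genes were called, 17 higher and 1 lower (0.119% of 15088 tested, edgeR), and 16 of them had been called in the same direction without XL413. The spread there was larger, with a median SE of 0.085 against 0.065, and GSK343+XL413 replicate 2 stood apart from its group. Without that library 399 genes were called, and 193 of the 422 were called in both backgrounds; leaving out XL413 replicate 3 gave 0, and the other 4 omissions gave 3 to 7. By sign alone, 407 of the 422 genes (96.5%) moved the same way with XL413, 210 of 224 higher and 197 of 198 lower, against 67.7% of 14891 genes tested in both. The median log2 fold change of the called higher genes was 0.33 without and 0.22 with XL413, and that of the called lower genes −0.18 and −0.16 for genes that were chosen by their difference without XL413.

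With XL413, HMGCS1 had a log2 fold change of 0.77 ± 0.051, INSIG1 0.74 ± 0.070 and SREBF2 0.35 ± 0.078. HSPA1A and HSPA1B had −0.33 ± 0.056 and −0.40 ± 0.076, PSAT1 −0.23 ± 0.044 and SREBF1 −0.32 ± 0.056. MMP3 and PTGES had 0.84 ± 0.064 and 0.71 ± 0.072. ITGA1 was at 0.05 ± 0.14, against 0.34 ± 0.041 without XL413, and TRIM34 at 0.01 ± 0.21. EZH2 had −0.05 ± 0.047. The median over the sterol branch was 0.34 with XL413 and that over interferon-stimulated genes 0.15.

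Whether the GSK343 difference itself depended on XL413 was tested as an interaction over all 12 libraries. With edgeR 0 genes passed (0% of 15443 tested, smallest adjusted p = 0.766), and 413 had an unadjusted p under 0.05. DESeq2 called 2 genes, CA9 and BAGE5, of which BAGE5 had an estimate of −46.5 log2 units, no interpretable size. CA9 rose without XL413 (1.11 ± 0.20) and had −0.53 ± 0.18 with it, an interaction of −1.63 ± 0.28 (edgeR unadjusted p = 4.96e-05, adjusted p = 0.766; DESeq2 adjusted p = 0.00918). Of the 422 called genes, 41 (9.72%) had an edgeR unadjusted interaction p under 0.05, against 413 of all 15443 tested. The 422 were chosen by their difference without XL413, which is 1 side of the interaction. Their share is therefore not comparable with that of all genes.

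**Figure D5:**
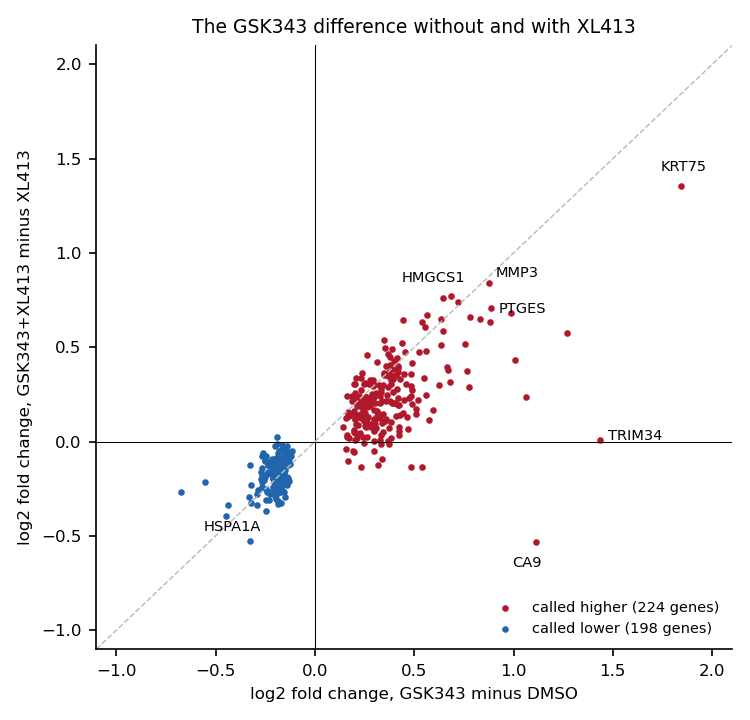
Log2 fold change for GSK343 without XL413 (horizontal) and with XL413 (vertical) of the 224 genes called higher (red) and 198 called lower (blue) without XL413; the dashed line marks equal values. Most points keep their sign, as do 407 of 422, and CA9 lies below 0 on the vertical axis.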

How the data were processed

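Per the labels' protocols, libraries were strand-specific (dUTP) and made from oligo-dT selected RNA. The deposited values are expected counts per gene (RSEM estimates, from 10.6 to 11.1% not whole in the 6 libraries), made by the authors on hg38 with RSEM 1.2.15 and Bowtie2 2.1.0, per the submitters' processing notes. The sources used here do not give the annotation, strand setting, trimming or filters. Close paralogs and overlapping genes therefore rest on RSEM's division of reads.

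Counts were rounded and fitted in R 4.3.3 with edgeR 4.0.16 (filterByExpr with minimum count 10 and total 15, TMM, quasi-likelihood test, 4 residual degrees of freedom, two-sided, Benjamini-Hochberg over all tested genes). SE was taken as the size of a log2 fold change over the square root of its F statistic. The same test was run on the 6 libraries with XL413 and, over 12 libraries, on the interaction. On simulated data the script recovered 46 of 67 genes changed 1.25-fold, 57 of 67 changed 1.5-fold and 66 of 66 changed 2-fold, with 10 false calls among 14864 genes. Median SE was 0.038 at 6 log2 CPM or more and 0.29 under 1.

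Libraries of a group were compared in pairs and none was a copy of another. The squared difference of a pair relative to counting noise, averaged over genes, was 15.3 and 9.42 for pairs with GSK343 replicate 3. For the other pairs it was 2.37 to 5.47. Same-numbered DMSO and GSK343 libraries did not deviate together (r across 10103 genes of 0.00187, −0.0165 and −0.078), so replicate numbers were not treated as pairs. Positions, length and GC content came from GENCODE on GRCh38 (23872 names matched directly, 713 through another symbol, 1888 not), promoters from RefSeq (11826 tested genes matched).

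The comparison, 44 gene lists, 4 marker lists and 4 motifs were chosen with earlier results of these data known, so list counts are descriptions, read against all tested genes, with no test of the list. Named genes are the 15 largest rises and falls among called genes of at least 1 log2 CPM with a proper symbol and groups that do not overlap, PRC2 subunits, and for each list up to 6 called members with the smallest p or, with no call, up to 2 with the highest level; others are said to be chosen after their values were seen or to lie beyond the rule, and a few genes the rule takes are not reported here. Of the large falls, LOC100630923, a locus with no GENCODE match, was at 12.5, 9.91 and 12.2 CPM with DMSO and 7.73, 8.83 and 7.04 CPM with GSK343. Alternatives were RLE and upper quartile scaling, limma-voom (limma 3.58.1), DESeq2 1.42.0, no filter or a minimum of 5 CPM in 3 libraries, 1 fit of 12 libraries, the replicate number as a term, a length and GC correction, and leaving out each library.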

Additional observations from a re-analysis of the deposited data

How the results depend on the processing

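The 422 calls became 180 in 1 fit of all 12 libraries (112 higher, 68 lower) and 761 with the length and GC correction (374 and 387). DESeq2 called 353 genes lower against 198. Calls of at least 1.5-fold, 27 at first, numbered 45 without a filter and 15 with at least 5 CPM in 3 libraries. With 1 library left out they ranged from 16 to 47, all calls from 68 to 951, higher calls from 52 to 422 and lower calls from 16 to 529. With XL413, calls numbered 78 by DESeq2 and from 0 to 399 with 1 library left out, and the interaction gave 2 by DESeq2 and 0 in each such fit. The cause was not tested.

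The replicate numbers did not pair the libraries; with the replicate block 363 genes were called, 549 with the block and the length and GC correction together, 12 with XL413 and 0 for the interaction. No DMSO or GSK343 library correlated best with the library of its own number in the other group. Of 122 called genes under the naming rule, 36 were called in all 6 fits that left out 1 library, 74 in the 10 other alternatives and 34 in all 16; the 12-library fit lost 41, the block 15, upper quartile scaling 8 and DESeq2 7. None of them reversed. Among genes not called, AEBP2 turned to −0.00931 and PHF1 to 0.0104 with the length and GC correction, and to −0.00929 and 0.0103 with the block as well. With 1 library left out AEBP2 ranged from −0.0145 to 0.046, PHF1 from −0.0461 to 0.00391 and HOXC10 from −0.00216 to 0.0348. Under 1 log2 CPM, 6 of 2643 genes were called and the median SE was 0.29; whether depth set that count was not tested.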

Other observations

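Of the called lower genes, 8 that encode actin or proteins of actin filaments were picked by hand after their values were seen; no list of such genes was fixed, and those not called were not counted. ACTB, cytoplasmic beta-actin, was at 3210, 3201 and 3154 CPM with DMSO and 2787, 2868 and 2975 CPM with GSK343, with all GSK343 libraries below all DMSO libraries and a fall of 0.15 ± 0.030 (edgeR adjusted p = 0.026). The alpha-actinins ACTN1 and ACTN4 fell by 0.17 and 0.13, the non-muscle myosin heavy chain MYH9 by 0.18, the bundling protein FSCN1 by 0.17, and the focal adhesion and filament genes ZYX, VASP and LASP1 by 0.16, 0.20 and 0.17. Each of these 8 calls was lost without DMSO replicate 2 or 3 and each but that of ACTN1 without DMSO replicate 1, and those of ACTB, ACTN1, ACTN4, MYH9, VASP and ZYX without GSK343 replicate 2, with ACTB, ACTN4 and ZYX also lost without GSK343 replicate 1 (adjusted p up to 0.22). The fit of all 12 libraries ended each of these calls but that of LASP1, and the length and GC correction ended those of ACTB (edgeR adjusted p = 0.0533) and ZYX (0.129). TGM2, tissue transglutaminase, which crosslinks matrix and cytosolic proteins, was at 663, 666 and 657 CPM with DMSO and 551, 571 and 559 CPM with GSK343 and was called in every fit that left out 1 library.

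VGF and SCG5 were also picked by hand after their values were seen. VGF, a granin-like precursor of secreted peptides, was at 99.2, 107 and 114 CPM with DMSO and 139, 152 and 130.5 CPM with GSK343 and rose by 0.40 ± 0.059, lost without DMSO replicate 2 (edgeR adjusted p = 0.0557). SCG5, a chaperone of prohormone convertase, was at 10.8, 9.82 and 9.66 CPM with DMSO and 16.8, 13.9 and 14.02 CPM with GSK343 and rose by 0.56 ± 0.089, lost without DMSO replicate 2 or 3 (up to 0.0713).

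Other rises called in every fit that left out 1 library, also named after their values were seen, included PLIN2, the coat protein of lipid droplets, at 320.4, 326 and 320.2 CPM with DMSO and 389, 377 and 378 CPM with GSK343, and IDH1, the cytosolic isocitrate dehydrogenase that yields NADPH, at 62.6, 63.7 and 63.3 CPM with DMSO and 79.3, 77.96 and 75.5 CPM with GSK343. The long non-coding RNAs NEAT1, which scaffolds paraspeckles, and UCA1 rose by 0.30 ± 0.031 and 0.42 ± 0.036. The acute-phase protease inhibitor SERPINA3 was at 129, 127 and 124 CPM with DMSO and 179, 184 and 166 CPM with GSK343, and the secreted phosphoprotein SPP1, osteopontin, at 8.86, 7.12 and 7.27 CPM with DMSO and 11.9, 12.3 and 12.1 CPM with GSK343. CEMIP, which degrades hyaluronan, NRP2, a co-receptor for semaphorins and VEGF, LYST, a regulator of lysosome size, and IGFN1 rose by 0.43 ± 0.035, 0.35 ± 0.036, 0.51 ± 0.062 and 0.51 ± 0.041. With XL413 present their log2 fold changes were 0.14 ± 0.16, 0.11 ± 0.14, 0.17 ± 0.15 and 0.15 ± 0.19, each about the size of its SE or smaller. The edgeR interaction test called 0 of all 15443 genes, so it cannot say whether these 4 differed between the backgrounds. A fit of all 12 libraries ended the 4 calls (edgeR adjusted p = 0.147 for CEMIP, 0.163 for NRP2, 0.0725 for LYST and 0.124 for IGFN1).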
